A study of Homo sapiens with 18 samples.

Results

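The genes examined here encode the proteins of the mitochondrial ribosome, taken by name as every gene of the count table called MRPL or MRPS followed by a number and at most 1 letter from A to C. This rule found 78 of the 58037 genes listed, 49 named MRPL and 29 named MRPS, and all 78 passed the filter on low counts, as did 15185 genes in all. They were measured in LNCaP cells, an androgen-responsive human prostate cancer line, in 6 groups of 3 biological replicates: E2F2 siRNA with R1881, E2F2 siRNA with vehicle, E2F1 siRNA with R1881, E2F1 siRNA with vehicle, control siRNA with R1881 and control siRNA with vehicle. R1881 is a synthetic androgen, given at 0.1 nM in ethanol, and the vehicle was ethanol. All groups were kept in medium with charcoal-stripped serum to deprive them of androgen and received an siRNA pool by lipid transfection, the control pool being non-targeting. RNA was taken 48 h after R1881 or vehicle was added, which was 42 h after transfection by the design text and 48 h by the sample labels. No untransfected cells are among the groups, each target was silenced with 1 pool of siRNAs, and all groups are a single cell line.

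The mitochondrial ribosome translates the messenger RNAs made from mitochondrial DNA, which encode core subunits of the respiratory chain and of ATP synthase. Its ribosomal RNAs come from mitochondrial DNA, whereas its proteins are encoded in the nucleus, made in the cytosol and imported. Both of its subunits combine proteins that have a homologue in the bacterial ribosome with others that are specific to mitochondria. The names do not always give the place of a protein: MRPS30 and MRPS18A belong to the large subunit, and MRPS36, named as a small subunit protein, is a component of the 2-oxoglutarate dehydrogenase complex. By these assignments 51 of the 78 genes belong to the large subunit and 26 to the small subunit. The genes lie on 21 chromosomes.

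Libraries held 10930204 to 14819879 counts, and differences were called at an adjusted p under 0.05 in edgeR's quasi-likelihood test with Benjamini-Hochberg adjustment over all 15185 genes. Levels are given as CPM, counts relative to the TMM-scaled library size, in the order of replicates 1, 2 and 3. E2F1 was at 8.69 to 10.3 CPM in R1881 with its own pool, against 68.6 to 81.2 CPM with control siRNA, a fall to 13.0% of control, and it fell to 18.4% of control in vehicle. E2F2, a gene of low counts here, fell to 6.02% of control in R1881 and 5.67% in vehicle with the E2F2 pool. The E2F2 pool also lowered E2F1, to 32.5% of control in R1881 and 33.7% in vehicle, so the groups with E2F2 siRNA have less of both messenger RNAs. With the E2F1 pool, E2F2 was at 1.15 to 1.68 CPM in R1881, against 2.36 to 4.59 CPM with control siRNA, 43.0% of control with no overlap of libraries (adjusted p = 0.0586), and at 81.5% of control in vehicle (adjusted p = 0.817). All 10 luminal prostate markers examined passed the filter, with median levels of 67.1 to 1126 CPM, whereas 10 of 13 markers of basal, stromal, leukocyte, endothelial and neuroendocrine cells had medians under 1 CPM. The summed level of those 13 was 43.8 to 52.9 CPM with E2F2 siRNA and R1881, 73.1 to 83.8 with E2F2 siRNA and vehicle, 22.5 to 27.1 and 20.2 to 25.6 with E2F1 siRNA in R1881 and vehicle, 35.5 to 37.7 with control siRNA and R1881, and 33.2 to 55.3 with control siRNA and vehicle. COL1A1 and VWF had the highest medians of the 13, 16.4 and 17.1 CPM, whereas CD3E and CHGA, defining markers of T cells and neuroendocrine cells, were at 0 in every library. SYP, the other neuroendocrine marker examined, passed the filter, at 1.70 to 3.90 CPM. The part of these markers in the results on E2F2 siRNA was not tested.

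The replicate 3 libraries stood apart from replicates 1 and 2. In the control vehicle group, single mitochondrial ribosomal protein genes differed between replicate 3 and the mean of replicates 1 and 2 by -2.14 to 1.19 on the log2 scale. Across the 78 genes this deviation went with the GC content of the longest transcript of each gene. Pearson's r was 0.58 to 0.77 in the 6 groups, a description over genes that share libraries and base composition. The summed level of the 78 genes moved far less, by -3.69% to 2.59%. Counts of called genes are therefore also given without replicate 3. Some counts below have no share of all genes beside them. These come from DESeq2, an unadjusted p, fits to only the groups compared, fits without the filter or fits without 1 library. They show how calls moved, not whether a share differs from that of all genes.

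Promoter stretches of 4 of the genes come first, to show the letters that recur among them. Of the 78 genes, 69 are in the RefSeq promoter table (GRCh38.p14), which holds 250 bases before and 50 after each start. The 4 shown, from 250 bases before to 30 after the start, are those of MRPS18A and MRPL17, called higher with R1881 under every siRNA pool, MRPL42, with a large fall under E2F2 siRNA, and MRPL18, called in 7 of the comparisons below. They run 5′ to 3′ on the strand of the gene: chr6:43687762-43688041 (minus strand), chr11:6683311-6683590 (minus strand), chr12:93467264-93467543 (plus strand) and chr6:159789562-159789841 (plus strand). Capitals mark matches to a YY1 motif in MRPS18A and MRPL42, an NRF1 motif in MRPL17 and an E2F motif, on the opposite strand, in MRPL18.
MRPS18A: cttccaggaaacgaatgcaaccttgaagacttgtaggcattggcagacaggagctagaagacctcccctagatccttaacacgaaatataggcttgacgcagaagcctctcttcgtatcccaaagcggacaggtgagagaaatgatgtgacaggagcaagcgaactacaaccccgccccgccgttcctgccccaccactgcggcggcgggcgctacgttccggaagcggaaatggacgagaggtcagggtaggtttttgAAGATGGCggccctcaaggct
MRPL17: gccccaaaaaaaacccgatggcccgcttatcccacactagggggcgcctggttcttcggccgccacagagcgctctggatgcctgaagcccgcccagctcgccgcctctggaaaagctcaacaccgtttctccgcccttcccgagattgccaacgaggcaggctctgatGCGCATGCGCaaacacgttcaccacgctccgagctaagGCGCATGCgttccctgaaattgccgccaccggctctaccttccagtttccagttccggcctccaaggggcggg
MRPL42: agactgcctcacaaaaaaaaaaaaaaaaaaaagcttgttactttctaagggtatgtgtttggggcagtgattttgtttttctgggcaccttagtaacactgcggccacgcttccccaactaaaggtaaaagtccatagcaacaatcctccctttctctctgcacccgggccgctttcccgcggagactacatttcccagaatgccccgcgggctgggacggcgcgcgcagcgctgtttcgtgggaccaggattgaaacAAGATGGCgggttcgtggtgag
MRPL18: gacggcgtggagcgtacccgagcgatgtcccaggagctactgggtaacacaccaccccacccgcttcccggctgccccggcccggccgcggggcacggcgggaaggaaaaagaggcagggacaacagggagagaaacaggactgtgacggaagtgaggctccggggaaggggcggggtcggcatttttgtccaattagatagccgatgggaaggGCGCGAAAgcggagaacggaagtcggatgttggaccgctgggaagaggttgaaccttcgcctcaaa

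The 5 motifs below were searched on both strands of those 300-base windows, and the YY1 letters stood out in number. YY1, NRF1, ETS family factors such as GABP, and MYC, which binds E-boxes, are regulators known for nuclear genes of mitochondrial proteins, and E2F factors are the targets of the siRNA pools. The YY1 motif AAGATGGC was present in 21 of 69 genes (30.4%), against 6.55% of the 10105 tested genes with a promoter and 3.52% of all 27305 genes of the table. In 16 of the 21 it lay downstream of the start on the strand of the gene, beginning 7 to 36 bases from it, as in the stretches of MRPS18A and MRPL42 above. The ETS motif CCGGAAGT was in 12 genes (17.4%, against 9.91% of tested genes), among them MRPL51 and MRPL3. The NRF1 motif GCATGCGC was in 6 genes (8.70%, against 6.52%). The stretch of MRPL17 holds 3 matches, of which 2 overlap in part on opposite strands, beginning at -81 and -79 from the start. The E-box CACGTG was in 9 genes (13.0%, against 12.7%). Either E2F motif, TTTCGCGC or TTTGGCGC, was in MRPL18, MRPL37 and MRPS7 only (4.35%, against 2.38%). No matches of different motifs overlapped in these genes, and a match describes letters, not binding.

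**Figure D1:**
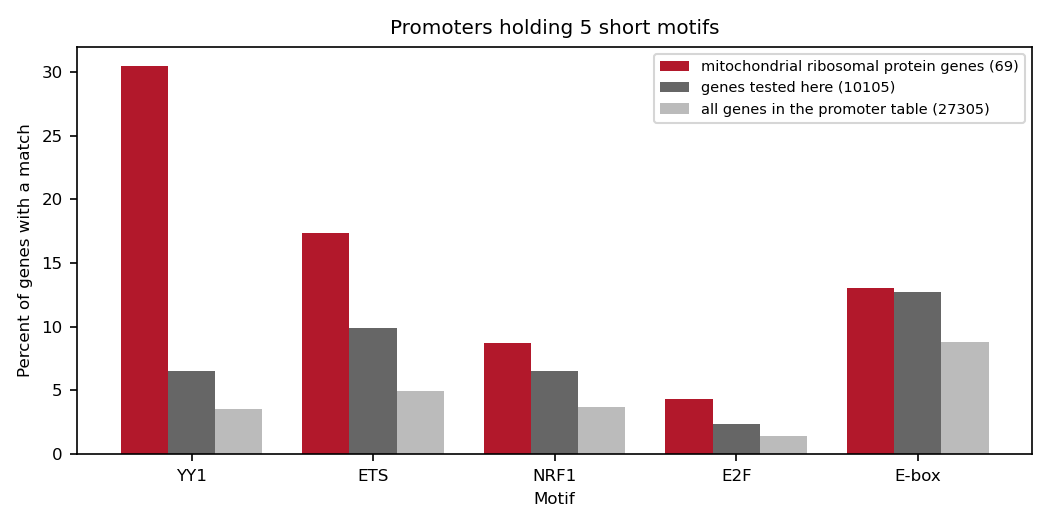
Percent of genes whose promoter window holds each of 5 motifs, for mitochondrial ribosomal protein genes (left bar of each group), genes tested here and all genes of the promoter table. The YY1 bar is 30.4% for the mitochondrial ribosomal protein genes and 6.55% for tested genes.

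Many of these genes also share the space around their start with a neighbour. In GENCODE 29, 19 of 78 (24.4%) had a divergent protein-coding neighbour, against 1760 of 19969 protein-coding genes (8.81%). Such a neighbour starts on the opposite strand, at most 1000 bases upstream of the gene's start or a short way past it. Noncoding neighbours were not counted. MRPL18 faced TCP1, a chaperonin subunit, at 63 bases, and MRPL36 faced NDUFS6, a subunit of respiratory complex I, at 34 bases. MRPL46 faced another of the 78 genes, MRPS11, at 34 bases, and MRPL43 faced the Twinkle helicase gene, listed as C10orf2 in the count table. Exons of 41 of the 78 overlapped exons of another annotated gene, 29 on the opposite strand and 16 on the same strand, and 34 had a named pseudogene in the count table. Whether counting used strand, and how reads with several matches were treated, is not stated in the sources at hand, so the counts of these genes may hold reads of the other gene.

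Levels compared between genes are per kilobase (kb) of exon, counting all annotated exons of a gene. The library kit captures coding exons, so the range and order below depend in part on this choice of length. Averaged over the 18 libraries they ranged 56.8-fold, with a median of 13.8 CPM per kb. The highest were 3 mitochondria-specific proteins, MRPL41 at 77.5 CPM per kb, MRPL51 at 67.8 and MRPS34 at 65.8. The lowest were MRPL46 at 2.57, MRPS24 at 2.55 and MRPL53 at 1.36 CPM per kb. MRPL53 had only 419 counts over all libraries, and its exons overlap those of CCDC142 by 608 bases on the same strand. MRPL53 was the lowest in each of the 6 groups, and the 3 highest were among the 4 highest in each.

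**Figure D2:**
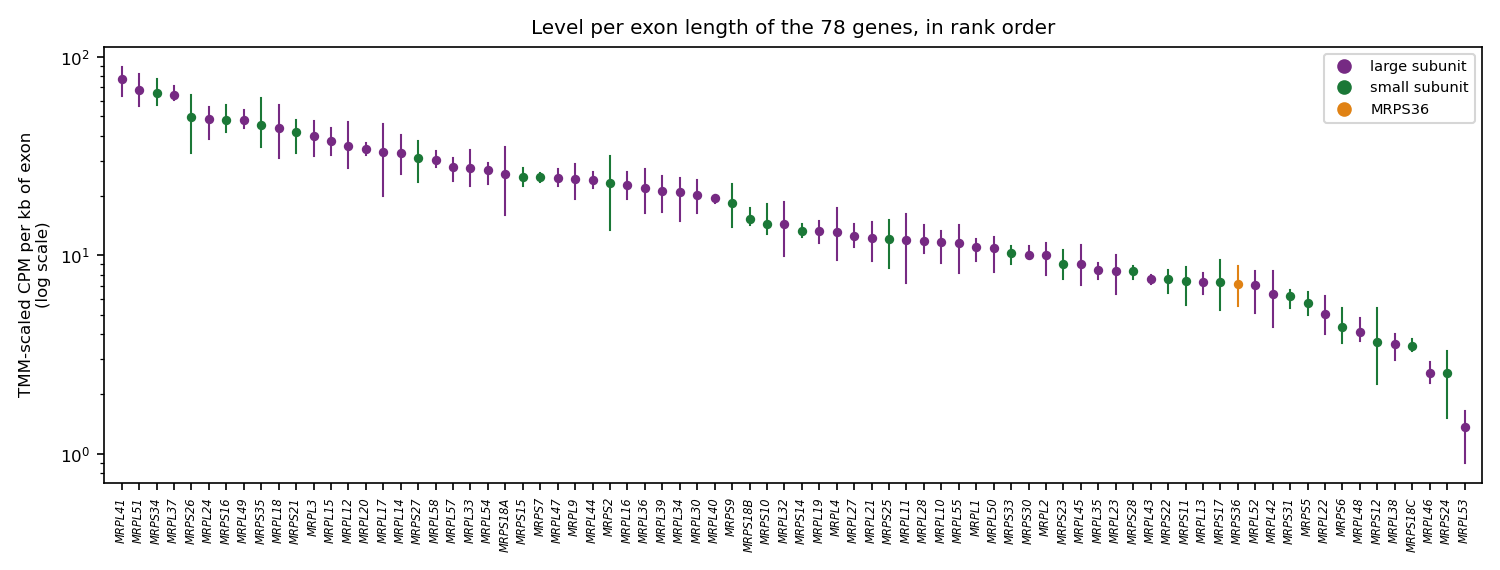
Level of each of the 78 genes in TMM-scaled CPM per kb of exon (log scale), in rank order, with the dot at the mean of 18 libraries and the line from the lowest to the highest of the 6 group means. MRPL41 is highest at 77.5 and MRPL53 lowest at 1.36 CPM per kb.

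Summed over all 78 genes, the level was higher with R1881 than with vehicle under each pool and lower with E2F2 siRNA than with control siRNA in both treatments. The libraries with E2F2 siRNA and R1881 had 3722, 3805 and 3624 CPM, and those with E2F2 siRNA and vehicle had 3223, 3308 and 3346 CPM. With E2F1 siRNA the sums were 4083, 4044 and 4071 CPM in R1881 and 3862, 3640 and 3838 CPM in vehicle. With control siRNA they were 4297, 4283 and 4402 CPM in R1881 and 3663, 3657 and 3732 CPM in vehicle. The order from high to low was thus control with R1881 (4327 ± 64.6 CPM, SD, n = 3), E2F1 with R1881 (4066 ± 19.7), E2F1 with vehicle (3780 ± 122), E2F2 with R1881 (3717 ± 90.4), control with vehicle (3684 ± 42.1) and E2F2 with vehicle (3292 ± 62.9). The middle 3 of these groups overlapped in their libraries and did not differ beyond their spread, whereas the other neighbours in the order did not overlap. The sum was 17.5% higher with R1881 than with vehicle under control siRNA, 7.57% higher under E2F1 siRNA and 12.9% higher under E2F2 siRNA. It was 14.1% lower with E2F2 siRNA than with control siRNA in R1881 and 10.6% lower in vehicle. In bulk RNA, fewer cells and less RNA per cell cannot be told apart, and the sums are relative to the RNA of all other genes.

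**Figure D3:**
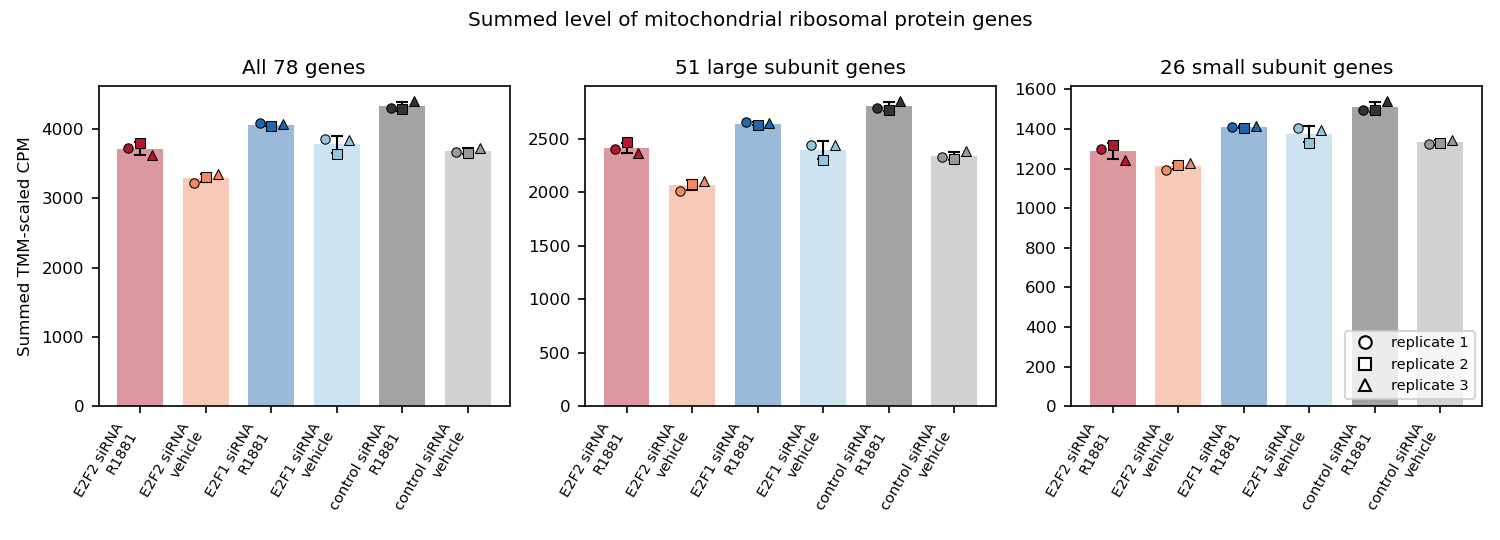
Summed TMM-scaled CPM of all 78 genes, of the 51 large subunit genes and of the 26 small subunit genes in each group, with E2F2 siRNA left, E2F1 siRNA in the middle and control siRNA right. Bars are means, lines SD (n = 3) and symbols the libraries; control siRNA with R1881 is highest at 4327 CPM for all genes and E2F2 siRNA with vehicle lowest at 3292 CPM.

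The sums of both subunits differed in the same direction. Large subunit genes summed to 2415 ± 50.3 CPM with E2F2 siRNA and R1881 and 2806 ± 41.6 CPM with control siRNA and R1881, 14.0% lower with E2F2 siRNA. Small subunit genes summed to 1289 ± 39.3 CPM and 1511 ± 25.9 CPM in the same groups, 14.7% lower with E2F2 siRNA. With R1881 under control siRNA the large subunit sum was 19.8% higher and the small subunit sum 13.4% higher than with vehicle. The difference between the subunits was not tested.

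R1881 under control siRNA raised 15 of the 78 genes and lowered 1. Across all genes 27.0% were called, 13.8% higher and 13.2% lower, so that the 16 of 78 called are no larger a share than the background, while their direction was uneven. The median log2 fold change of the 78 was 0.25, against 0.00 over all tested genes, and it was above 0 for 70 of 78, against 50.2% of all tested genes. Libraries did not overlap between the treatments for 26 genes that were higher and 2 that were lower. Of all tested genes, 18.1% were higher and 17.0% lower without overlap.

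The 6 genes with the smallest p among those that rose were of mixed kind. MRPL18 (GRCh38 chr6:159789812-159798436, plus strand), a protein of the central protuberance of the large subunit, was at 76.9, 80.4 and 77.0 CPM with R1881 and 61.9, 58.1 and 59.6 CPM with vehicle (log2 fold change 0.38 ± 0.07, adjusted p = 0.000486). MRPS25 (GRCh38 chr3:15042460-15065335, minus strand), a mitochondria-specific small subunit protein, was at 83.6, 80.2 and 80.2 CPM with R1881 and 57.6, 61.9 and 62.8 CPM with vehicle (log2 fold change 0.42 ± 0.08, adjusted p = 0.000961). MRPL32 (GRCh38 chr7:42932200-42948958, plus strand), which the m-AAA protease cuts to its mature form in yeast and mouse mitochondria, was at 54.3, 55.0 and 61.6 and 46.9, 42.1 and 41.3 CPM with R1881 and vehicle (log2 fold change 0.39 ± 0.08, adjusted p = 0.00124). In all of these every R1881 library lay above every vehicle library. The same held for MRPL36, a very small large subunit protein with a bacterial homologue, at 36.8, 35.1 and 42.2 CPM with R1881 and 24.4, 22.3 and 29.7 CPM with vehicle (log2 fold change 0.58 ± 0.11, adjusted p = 0.00131). MRPL51 was at 129, 129 and 122 CPM with R1881 and 101, 102 and 88.5 CPM with vehicle (log2 fold change 0.38 ± 0.08, adjusted p = 0.00194). Its exons overlap by 486 bases on the opposite strand those of NCAPD2, a condensin subunit, which rose itself (log2 fold change 0.73). MRPL17 (GRCh38 chr11:6680782-6683401, minus strand), whose promoter holds the NRF1 letters shown above, was at 94.7, 98.0 and 119.7 CPM with R1881 and 60.8, 62.0 and 77.7 CPM with vehicle (log2 fold change 0.64 ± 0.14, adjusted p = 0.00288), with replicate 3 the highest in both groups.

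The largest rise was that of MRPS18A (GRCh38 chr6:43671303-43687791, minus strand), a large subunit protein despite its name, at 39.0, 40.2 and 55.5 CPM with R1881 and 20.6, 21.0 and 33.2 CPM with vehicle (log2 fold change 0.84 ± 0.21, adjusted p = 0.00626). Its paralogs of the small subunit were not called, MRPS18B at 30.9, 32.9 and 34.5 and 25.1, 25.5 and 31.7 CPM with R1881 and vehicle (adjusted p = 0.241) and MRPS18C at 19.6, 21.9 and 13.4 and 20.3, 18.3 and 9.47 CPM (adjusted p = 0.698). MRPS18A overlaps 604 bases of RSPH9 on the opposite strand, but RSPH9 had 14 counts over all libraries. MRPL12, which forms the stalk of the large subunit and also binds the mitochondrial RNA polymerase, rose as well, with 46.3, 46.5 and 52.2 CPM with R1881 and 32.6, 32.8 and 36.8 CPM with vehicle (log2 fold change 0.50 ± 0.12, adjusted p = 0.00569). The gene that fell was MRPS27 (GRCh38 chr5:72219409-72320646, minus strand), a pentatricopeptide repeat protein of the small subunit, at 184, 189 and 184 CPM with R1881 and 225, 222 and 209.5 CPM with vehicle (log2 fold change -0.23 ± 0.06, adjusted p = 0.00532).

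Of the 15 genes that rose, 12 were among the 51 of the large subunit and 3 among the 26 of the small subunit. The 31 large subunit proteins with a bacterial homologue held 10 of them, and the 20 specific to mitochondria held 2. Blocking on the replicate number, 38 rose and 2 fell (42.1% of all genes were called), without replicate 3 it was 40 and 2 (47.3%), and a fit to these 6 libraries alone called 2 higher and 0 lower. Leaving out control vehicle replicate 3 alone gave 26 higher and 2 lower.

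**Figure D4:**
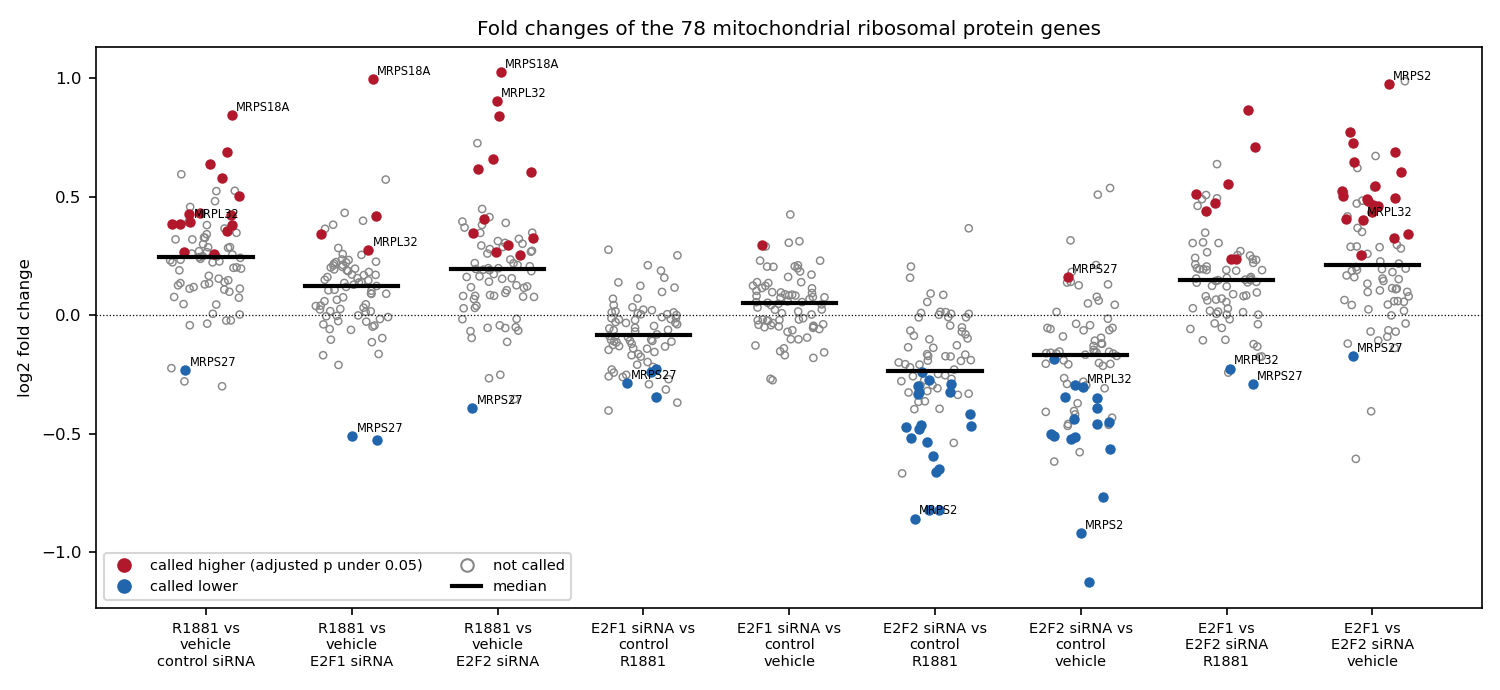
log2 fold change of each of the 78 genes in 9 comparisons, the first named group over the second, with genes called higher (red), called lower (blue) or not called (open) and the median as a bar. The median is 0.25 for R1881 over vehicle under control siRNA and -0.24 for E2F2 over control siRNA in R1881, where 20 genes were called lower and 0 higher.

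E2F2 siRNA lowered 20 of the 78 genes in R1881 and raised 0. Across all genes 30.3% were called, 15.9% higher and 14.4% lower, so the share called lower among the 78 (25.6%) was above that of all genes and the share called higher below it. The median log2 fold change was -0.24, against 0.03 over all tested genes, and it was below 0 for 66 of 78. At an unadjusted p under 0.05, 1 gene was higher and 31 were lower, and DESeq2 called 1 higher and 22 lower. For 42 genes every E2F2 siRNA library lay below every control library, and for 2 above. Of all tested genes, 23.4% were lower and 25.6% higher without overlap. E2F1 was also at 32.5% of control in these cells.

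MRPL18 fell, with 54.9, 59.2 and 53.9 CPM with E2F2 siRNA and 76.9, 80.4 and 77.0 CPM with control siRNA, both in R1881 (log2 fold change -0.48 ± 0.07, adjusted p = 6.22e-05). MRPS25 had 60.6, 54.2 and 62.0 CPM with E2F2 siRNA and 83.6, 80.2 and 80.2 CPM with control siRNA (log2 fold change -0.46 ± 0.08, adjusted p = 0.000393). MRPL11 (GRCh38 chr11:66435075-66466738, minus strand), of the site where translation factors dock, had 28.2, 28.4 and 28.2 CPM with E2F2 siRNA and 39.9, 40.4 and 42.6 CPM with control siRNA (log2 fold change -0.53 ± 0.10, adjusted p = 0.00105). Replicates of these genes were close together, and the groups were far apart against that spread. MRPS17, a small subunit protein with a bacterial homologue, had 12.3, 13.0 and 13.6 CPM with E2F2 siRNA and 21.0, 22.0 and 18.2 CPM with control siRNA (log2 fold change -0.65 ± 0.13, adjusted p = 0.00157). MRPS16, also of the small subunit, had 133, 135 and 125 CPM and 166, 156 and 159 CPM in these groups (log2 fold change -0.29 ± 0.06, adjusted p = 0.00188). MRPL9 had 38.7, 38.7 and 35.4 CPM with E2F2 siRNA and 49.9, 53.6 and 52.9 CPM with control siRNA (log2 fold change -0.47 ± 0.10, adjusted p = 0.00224). None of the 6 overlapped between groups. MRPS16 shares 20 bases with DNAJC9, which fell too (log2 fold change -0.38), whereas OAZ3, overlapping MRPL9 by 333 bases on the opposite strand, was called higher (log2 fold change 0.40).

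Of the genes kept in view for their roles, MRPL12 and MRPL45 fell and the others were not called. MRPL12 had 33.1, 36.8 and 34.8 CPM with E2F2 siRNA and 46.3, 46.5 and 52.2 CPM with control siRNA (log2 fold change -0.47 ± 0.12, adjusted p = 0.00843). MRPL45, which sits at the exit of the large subunit and holds the ribosome to the inner membrane, had 11.8, 11.2 and 13.3 CPM with E2F2 siRNA and 20.8, 20.4 and 16.4 CPM with control siRNA (log2 fold change -0.66 ± 0.20, adjusted p = 0.0174). MRPL58, a peptidyl-tRNA hydrolase built into the large subunit, had 30.4, 31.3 and 31.9 and 37.0, 34.6 and 40.3 CPM (adjusted p = 0.1). MRPS30 had 60.5, 61.8 and 57.7 CPM with E2F2 siRNA and 75.0, 73.7 and 58.0 CPM with control siRNA (adjusted p = 0.506). MRPS18A, MRPS18B and MRPS18C had adjusted p of 0.758, 0.737 and 0.699. MRPS36, not a ribosomal protein, had 16.7, 14.8 and 9.07 CPM with E2F2 siRNA and 8.41, 14.6 and 8.39 CPM with control siRNA, and its log2 fold change was the highest of the 78 at 0.37, with an adjusted p of 0.554. The table also holds 5 pseudogenes of MRPS36.

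The largest falls, named after their values were seen, were those of MRPS2, MRPL42 and MRPS12. MRPS2 (GRCh38 chr9:135499984-135504673, plus strand), a small subunit protein with a bacterial homologue, had 42.9, 38.9 and 47.5 CPM with E2F2 siRNA and 69.4, 71.6 and 93.5 CPM with control siRNA (log2 fold change -0.86 ± 0.21, adjusted p = 0.00634). MRPL42, a mitochondria-specific large subunit protein (GRCh38 chr12:93467488-93516213, plus strand), had 86.8, 74.6 and 64.99 CPM with E2F2 siRNA and 144, 149 and 108 CPM with control siRNA (log2 fold change -0.82 ± 0.26, adjusted p = 0.0268), and the table holds 4 pseudogenes of it. MRPS12 (GRCh38 chr19:38930548-38933162, plus strand), a small subunit protein with a bacterial homologue, had 6.76, 6.19 and 6.82 CPM with E2F2 siRNA and 11.8, 9.43 and 13.8 CPM with control siRNA (log2 fold change -0.82 ± 0.24, adjusted p = 0.018), and its exons overlap 349 bases of SARS2 on the opposite strand. The call of MRPL42 was lost without control R1881 replicate 1 or 2 or E2F2 R1881 replicate 2 or 3, and that of MRPS12 without control R1881 replicate 3 or E2F2 R1881 replicate 2. Replicate 3 was the highest library of MRPS2 and the lowest of MRPL42 in both groups, and the groups did not overlap for either gene. The large subunit held 13 of the 20 genes that fell and the small subunit 7. Without replicate 3, 40 fell and 4 rose (51.4% of all genes were called). A fit to these 6 libraries alone called 36 lower, with no share of all genes given for that fit. Leaving out control R1881 replicate 1 or E2F2 R1881 replicate 3 gave 13 lower in each case.

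In vehicle, E2F2 siRNA lowered 17 of the 78 and raised 1, against 27.3% of all genes called (14.2% higher, 13.1% lower). The median log2 fold change was -0.17, against 0.02 over all tested genes. Libraries of the pools did not overlap for 1 higher and 23 lower genes, against 20.4% and 16.9% of all tested genes. MRPL18 had 41.98, 42.5 and 42.5 CPM with E2F2 siRNA and 61.9, 58.1 and 59.6 CPM with control siRNA (log2 fold change -0.50 ± 0.07, adjusted p = 4.99e-05). MRPL11 had 18.1, 18.0 and 19.2 CPM with E2F2 siRNA and 31.2, 28.3 and 34.6 CPM with control siRNA (log2 fold change -0.77 ± 0.11, adjusted p = 5.99e-05), and MRPS25 45.2, 46.0 and 47.7 and 57.6, 61.9 and 62.8 CPM (log2 fold change -0.39 ± 0.08, adjusted p = 0.00195). The libraries of these 3 genes did not overlap. The gene that rose was MRPS27, with 249.6, 243 and 241 CPM with E2F2 siRNA and 225, 222 and 209.5 CPM with control siRNA (log2 fold change 0.16 ± 0.06, adjusted p = 0.0438). Of the 20 genes lower in R1881, 11 were also among the 17 lower in vehicle (55.0% of the first list and 64.7% of the second), the 2 comparisons sharing no libraries: MRPL9, MRPL11, MRPL18, MRPL21, MRPL24, MRPL52, MRPS2, MRPS16, MRPS17, MRPS21 and MRPS25. The same overlap was not counted over all tested genes, so it is not shown to be particular to the 78. With replicate number as a block 32 fell and 2 rose (45.3% of all genes were called), without replicate 3 it was 37 and 2 (45.7%), and a fit to these 6 libraries alone called 2 lower. Leaving out E2F2 vehicle replicate 1 gave 9 lower, and leaving out E2F2 vehicle replicate 2 gave 10 lower.

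The lowest log2 fold change in vehicle, singled out after the values were seen, was that of MRPS24 (log2 fold change -1.13 ± 0.37, adjusted p = 0.032). It was counted at a few CPM, 3.42, 3.40 and 5.08 with E2F2 siRNA and 5.91, 5.95 and 14.1 with control siRNA. Its exons overlap 606 bases of URGCP-MRPS24 on the same strand, which had 9 counts over all libraries. The control library of replicate 3 stood well above the other two, and the lowest control library was above the highest E2F2 library. Without that control library the log2 fold change of MRPS24 was -0.58 and not called (adjusted p = 0.211), and MRPS2, at -0.67, was then lower than MRPS24. The call was also lost without E2F2 vehicle replicate 1 or 2 (adjusted p = 0.108 and 0.11).

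**Figure D5:**
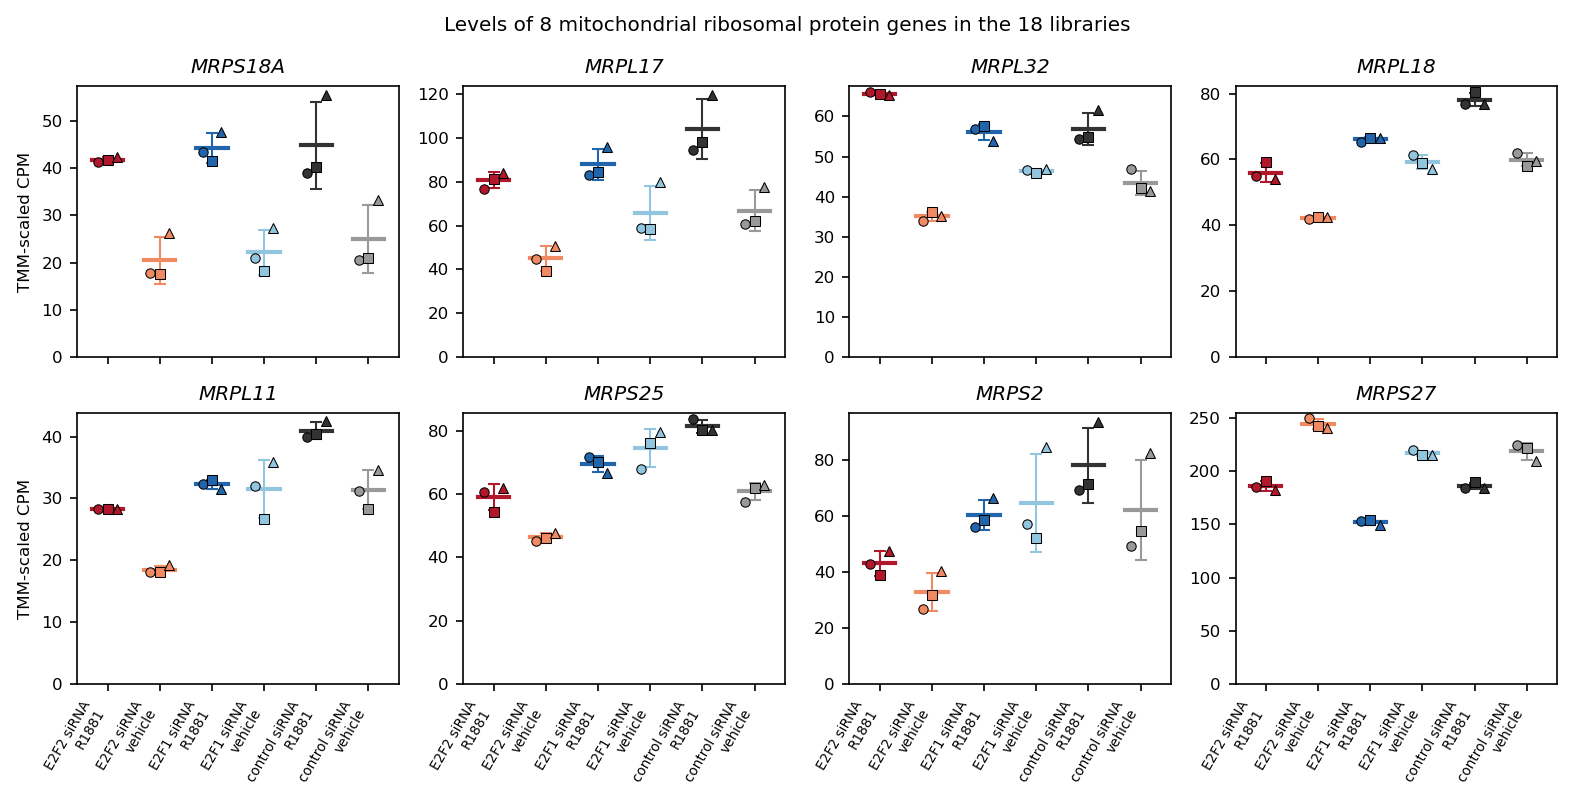
TMM-scaled CPM of 8 genes in the 18 libraries, with the 6 groups in the same order from E2F2 siRNA with R1881 at left to control siRNA with vehicle at right. Symbols are replicates 1 (circle), 2 (square) and 3 (triangle), bars means and whiskers SD (n = 3); MRPS18A is higher in every R1881 library than in any vehicle library, and MRPS27 lower in R1881 than in vehicle under each pool.

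E2F1 siRNA changed fewer of these genes, as it did of all tested genes. In R1881, 4 of 78 fell and 0 rose, against 9.34% of all genes called (4.42% higher, 4.92% lower), and the median log2 fold change was -0.08. The share of the 78 called lower (5.13%) was near that of all genes. At an unadjusted p under 0.05, 0 were higher and 8 lower, and DESeq2 called 0 higher and 5 lower. The 2 groups did not overlap for 4 higher and 18 lower genes, against 15.9% and 16.5% of all tested genes. MRPS27 had 153, 154 and 149 CPM with E2F1 siRNA and 184, 189 and 184 CPM with control siRNA (log2 fold change -0.29 ± 0.06, adjusted p = 0.00362). MRPS16 had 137, 134 and 139.7 CPM with E2F1 siRNA and 166, 156 and 159 CPM with control siRNA (log2 fold change -0.23 ± 0.06, adjusted p = 0.0263). In both the groups were apart in every library. MRPL18 had 65.3, 66.4 and 66.5 and 76.9, 80.4 and 77.0 CPM with E2F1 and control siRNA (log2 fold change -0.24 ± 0.07, adjusted p = 0.0338), and MRPL11 32.3, 32.9 and 31.5 and 39.9, 40.4 and 42.6 CPM (log2 fold change -0.34 ± 0.10, adjusted p = 0.0486). Of the genes kept for their roles 0 were called by this test, MRPL12 having an adjusted p of 0.215 and MRPL45 of 0.726. Blocked by replicate number, 11 fell (19.9% of all genes were called), and without replicate 3 it was 16 lower and 3 higher (29.5%). Leaving out any 1 of the 6 libraries left 1 gene lower, MRPS27.

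In vehicle, 1 of 78 rose and 0 fell with E2F1 siRNA, against 5.28% of all genes called (2.36% higher, 2.92% lower), and the median log2 fold change was 0.05. With 1 library left out this median was 0.0049 to 0.077, moving by over 1.5 times without E2F1 vehicle replicate 1 or 3 or control vehicle replicate 1, 2 or 3. At an unadjusted p under 0.05, 3 were higher and 0 lower, and DESeq2 called 1 higher and 0 lower. Libraries were apart for 3 higher and 1 lower genes, against 7.20% and 7.69% of all tested genes. The gene was MRPS25, with 67.8, 76.1 and 79.6 CPM with E2F1 siRNA and 57.6, 61.9 and 62.8 CPM with control siRNA (log2 fold change 0.29 ± 0.08, adjusted p = 0.045). The lower genes with the smallest p were MRPL28 (log2 fold change -0.27 ± 0.15, adjusted p = 0.407) and MRPL41 (log2 fold change -0.27 ± 0.19, adjusted p = 0.581). The call of MRPS25 was lost without control vehicle replicate 1 or 2 or E2F1 vehicle replicate 2, and in the fit to these 6 libraries alone, and without replicate 3 there were 3 higher and 1 lower (18.8% of all genes).

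Under E2F1 siRNA, R1881 raised 4 of the 78 and lowered 2. Of all genes 19.8% were called (10.1% higher, 9.75% lower), and the median log2 fold change of the 78 was 0.12. The treatments did not overlap for 16 higher and 3 lower genes, against 17.3% and 17.0% of all tested genes. MRPS18A had 43.4, 41.6 and 47.7 CPM with R1881 and 21.0, 18.1 and 27.4 CPM with vehicle (log2 fold change 0.99 ± 0.21, adjusted p = 0.00251). MRPS23, a mitochondria-specific small subunit protein, had 69.9, 66.0 and 66.98 CPM with R1881 and 57.3, 52.9 and 49.7 CPM with vehicle (log2 fold change 0.34 ± 0.09, adjusted p = 0.0114), and MRPL32 56.8, 57.6 and 54.0 and 46.6, 45.9 and 46.8 CPM (log2 fold change 0.27 ± 0.08, adjusted p = 0.0186). MRPL17 rose too (log2 fold change 0.42 ± 0.14, adjusted p = 0.0467). The genes that fell were both of the small subunit. MRPS27 had 153, 154 and 149 CPM with R1881 and 219.6, 215 and 215 CPM with vehicle (log2 fold change -0.51 ± 0.06, adjusted p = 5.42e-06), and MRPS6 16.8, 16.5 and 15.6 and 25.7, 23.8 and 20.9 CPM (log2 fold change -0.53 ± 0.11, adjusted p = 0.00331). PTCD2, which overlaps MRPS27 by 190 bases on the opposite strand, fell too (log2 fold change -0.56). In the fit blocked on replicate 12 rose and 2 fell (30.7% of all genes were called), without replicate 3 it was 20 and 3 (38.3%), and a fit to these 6 libraries alone called 1 higher and 2 lower. Leaving out E2F1 R1881 replicate 1 gave 1 higher and 2 lower.

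Under E2F2 siRNA, R1881 raised 12 of the 78 and lowered MRPS27. Of all genes 22.8% were called (11.8% higher, 11.0% lower), and the median log2 fold change of the 78 was 0.19. R1881 and vehicle libraries were apart for 31 higher and 3 lower genes, against 21.8% and 21.4% of all tested genes. MRPL32 had 66.0, 65.5 and 65.4 CPM with R1881 and 34.0, 36.2 and 35.1 CPM with vehicle (log2 fold change 0.90 ± 0.08, adjusted p = 3.66e-07). MRPL18 had 54.9, 59.2 and 53.9 CPM with R1881 and 41.98, 42.5 and 42.5 CPM with vehicle (log2 fold change 0.41 ± 0.07, adjusted p = 0.000341), and MRPL17 76.9, 81.5 and 84.0 and 44.9, 39.4 and 50.9 CPM (log2 fold change 0.84 ± 0.14, adjusted p = 0.000361). MRPS18A, with 41.2, 41.7 and 42.4 CPM in R1881 and 17.8, 17.6 and 26.3 CPM in vehicle, had the highest log2 fold change (log2 fold change 1.02 ± 0.21, adjusted p = 0.00191). MRPS27 had 185, 191 and 182 CPM with R1881 and 249.6, 243 and 241 CPM with vehicle (log2 fold change -0.39 ± 0.06, adjusted p = 7.06e-05). In all of these genes R1881 and vehicle libraries were apart. Under a replicate block 27 rose and 1 fell (36.2% of all genes were called), without replicate 3 it was 40 and 3 (45.5%), and a fit to these 6 libraries alone called 21 higher. Leaving out E2F2 vehicle replicate 1 or E2F2 R1881 replicate 2 gave 7 higher in each case.

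The lists of genes raised by R1881 shared members across the pools, whose libraries are separate. Of the 15 genes under control siRNA, 10 were also among the 12 under E2F2 siRNA (66.7% of the first list and 83.3% of the second), and 3 were among the 4 under E2F1 siRNA (20.0% and 75.0%). MRPS18A, MRPL17 and MRPL32 were on all 3 lists, and MRPS27 was called lower under each pool. Sharing of calls across the pools was not counted over all tested genes. It is therefore not shown to be particular to the mitochondrial ribosomal protein genes.

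The response to R1881 itself differed between an E2F pool and control siRNA for 2 of the 78 genes, 1 for each pool. For E2F1 minus control siRNA, 0.685% of all genes were called, 0.310% lower and 0.375% higher. The gene was MRPS25, whose log2 response was lower by 0.52 (-0.52 ± 0.11, adjusted p = 0.0484). R1881 and vehicle libraries of MRPS25 overlapped under E2F1 siRNA, with 71.5, 70.0 and 66.6 CPM and 67.8, 76.1 and 79.6 CPM, but not under control siRNA. For E2F2 minus control siRNA, 0.889% of all genes were called, 0.560% higher and 0.329% lower. The gene was MRPL32, with a difference of 0.51 ± 0.11 (adjusted p = 0.0401). It was lowest of all groups in vehicle with E2F2 siRNA and highest in R1881 with E2F2 siRNA. The median difference over the 78 genes was -0.11 for E2F1 and -0.05 for E2F2, and both comparisons use the control libraries. With 1 library left out the E2F2 median was -0.091 to -0.010, moving by over 1.5 times without E2F2 vehicle replicate 1 or 3, E2F2 R1881 replicate 3 or control R1881 replicate 3. With replicates as blocks, 2 genes were called lower for E2F1 siRNA, against 2.61% of all genes lower (4.58% in either direction), which is no more than the background. Both calls were lost in the fit to the 12 libraries compared, and leaving out single libraries ended them in most cases: for MRPS25 all but control vehicle replicate 3, and for MRPL32 all but control vehicle replicate 3 and control R1881 replicate 3, with adjusted p over all alternatives of 0.000442 to 0.312 and 0.000126 to 0.459.

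Set directly against E2F2 siRNA, E2F1 siRNA left more of these genes called higher than lower. In R1881, 8 of 78 were higher and 2 lower, against 24.0% of all genes called (11.0% higher, 13.1% lower), with a median log2 fold change of 0.15. Of the 78, 10.3% were called higher, no more than of all genes, and 2.56% lower, a smaller share than of all genes. The pools were apart for 37 higher and 5 lower genes, against 23.8% and 23.8% of all tested genes. MRPL52 had 27.0, 28.3 and 25.2 CPM with E2F1 siRNA and 17.7, 15.5 and 16.0 CPM with E2F2 siRNA (log2 fold change 0.71 ± 0.15, adjusted p = 0.00292). MRPL22, at the tunnel through which the new protein leaves, had 35.1, 32.6 and 31.1 CPM with E2F1 siRNA and 24.7, 22.7 and 21.8 CPM with E2F2 siRNA (log2 fold change 0.51 ± 0.11, adjusted p = 0.00356). MRPL30 had 71.1, 69.1 and 67.3 and 48.3, 46.8 and 46.3 CPM with E2F1 and E2F2 siRNA (log2 fold change 0.55 ± 0.13, adjusted p = 0.00588). The lower genes were MRPS27 (log2 fold change -0.29 ± 0.06, adjusted p = 0.00137) and MRPL32 (log2 fold change -0.23 ± 0.08, adjusted p = 0.0438). Without replicate 3, 23 were higher and 5 lower (44.7% of all genes were called), and a fit to these 6 libraries alone called 20 higher and 2 lower. Leaving out E2F2 R1881 replicate 1 or E2F1 R1881 replicate 2 gave 5 higher and 1 lower in each case.

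In vehicle, 20 of 78 were higher with E2F1 than with E2F2 siRNA and 1 was lower, against 30.6% of all genes called (14.4% higher, 16.1% lower), with a median log2 fold change of 0.21. Here the pools did not overlap for 35 higher and 1 lower genes, against 20.6% and 22.8% of all tested genes. MRPS25 had 67.8, 76.1 and 79.6 CPM with E2F1 siRNA and 45.2, 46.0 and 47.7 CPM with E2F2 siRNA (log2 fold change 0.69 ± 0.08, adjusted p = 9.95e-06). MRPL11 had 32.1, 26.6 and 35.9 CPM with E2F1 siRNA and 18.1, 18.0 and 19.2 CPM with E2F2 siRNA (log2 fold change 0.77 ± 0.11, adjusted p = 4.63e-05), and MRPL18 61.3, 59.0 and 57.1 and 41.98, 42.5 and 42.5 CPM (log2 fold change 0.48 ± 0.07, adjusted p = 5.96e-05). Each was higher in every E2F1 siRNA library. MRPS27 was again the exception (log2 fold change -0.17 ± 0.06, adjusted p = 0.0274). The 8 genes higher in R1881 were all among the 20 higher in vehicle, which is 40.0% of that list, and the libraries of the 2 comparisons are separate. How often calls were shared in this way over all tested genes was not counted. Treating the replicate number as a block, 35 were higher and 2 lower (45.5% of all genes were called), and without replicate 3 it was 40 and 5 (50.4%).

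Counted over the 9 comparisons of 2 groups, 37 of the 78 genes were called at least in 1 and 41 in none. The 37 genes are 47.4% of the 78, against 57.9% of all tested genes called at least in 1. MRPL41, MRPS34 and MRPL53, at the ends of the order of levels, and MRPL58, MRPS30, MRPS18B, MRPS18C and MRPS36 were among those called in none.

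Other genes of mitochondrial gene expression were read beside these in 7 lists, against the same shares of all genes called as given above. Under E2F2 siRNA in R1881, 9 of 26 tested genes for assembly of the mitochondrial ribosome and modification of its RNA fell and 1 rose. MRM3 and MRM2, which methylate the large ribosomal RNA, had log2 fold changes of -0.62 and -0.51, RPUSD4, a pseudouridine synthase, -0.51, and RBFA, which matures the small subunit, -0.61, with adjusted p of 8.66e-05, 0.000107, 0.000117 and 0.000493. The median log2 fold change of this list was -0.19. Among mitochondrial aminoacyl-tRNA synthetases 7 of 20 fell, with MARS2, which charges methionine, falling most (log2 fold change -0.97 ± 0.11, adjusted p = 6.4e-06), then LARS2 (log2 fold change -0.51 ± 0.08, adjusted p = 0.000168), HARS2 (-0.35) and EARS2 (-0.37). Of 15 translation factors 3 fell, namely MRRF, the ribosome recycling factor (log2 fold change -0.58 ± 0.09, adjusted p = 0.000122), SLIRP, which stabilises mitochondrial messenger RNA (-0.48), and TSFM, an elongation factor (-0.27). Of 12 genes for the upkeep and transcription of mitochondrial DNA 5 fell, with C10orf2, the Twinkle helicase gene that faces MRPL43, at -1.14, MGME1, an exonuclease, at -0.94, POLG2 at -0.59 and SSBP1 at -0.32 on the log2 scale. That last count was 3 without E2F2 R1881 replicate 2 or control R1881 replicate 1 or 2.

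Of 8 tested regulators of mitochondrial biogenesis 4 fell in that comparison: MYC (log2 fold change -1.26 ± 0.20, adjusted p = 0.000155), PPARGC1B (log2 fold change -0.68 ± 0.11, adjusted p = 0.000255), PPRC1 (-0.96) and NRF1 (-0.61). The 5 ribosomal proteins with other names, such as DAP3 and PTCD3, had 0 calls, 0 at an unadjusted p under 0.05 and 0 by DESeq2, PTCD3 having a log2 fold change of -0.34 (adjusted p = 0.194) and DAP3 of 0.10 (adjusted p = 0.323). Of 15 genes encoded in mitochondrial DNA 1 rose (6.67%, against 15.9% of all genes called higher), MT-ND4L (log2 fold change 0.38 ± 0.13, adjusted p = 0.0347). Their median log2 fold change was 0.20, opposite in sign to that of the nuclear-encoded ribosomal proteins. With E2F1 siRNA the median of these 15 was also above 0, at 0.17 in R1881 and 0.15 in vehicle. The count of 1 became 0 without any single E2F2 R1881 library or control R1881 replicate 1, and 3 without control R1881 replicate 3. In vehicle E2F2 siRNA raised 2 of the 15, MT-ND4L (0.45) and MT-ND4 (0.38), a count that became 0 without E2F2 vehicle replicate 2 and 1 without E2F2 vehicle replicate 3 or control vehicle replicate 1 or 2. It lowered there 9 assembly genes and raised 1, lowered 7 synthetases, with MARS2 at -0.94, lowered 1 gene of mitochondrial DNA upkeep, C10orf2 (-0.73), and 2 regulators, MYC (-1.26) and PPRC1 (-0.82), with 0 translation factors and 0 ribosomal proteins of other names called by this test or DESeq2. Without control vehicle replicate 3, 5 genes of mitochondrial DNA upkeep, 1 translation factor and 1 protein of another name were called, without replicate 1 or 2 of that group 2 upkeep genes and 1 or 2 translation factors, and without E2F2 vehicle replicate 3, 1 translation factor.

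R1881 under control siRNA raised 4 of the 15 translation factors: C12orf65, a release factor homologue (log2 fold change 0.53 ± 0.10, adjusted p = 0.00119), MRRF (0.43), GFM1, an elongation factor (0.65), and SLIRP (0.45). It raised 5 assembly genes, among them AFG3L2, a subunit of the m-AAA protease that matures MRPL32 (log2 fold change 0.32 ± 0.07, adjusted p = 0.0022), RBFA (0.43) and MALSU1 (0.47), and lowered METTL15 (-0.44). The synthetases MARS2 (0.71) and YARS2 (0.48) rose, as did C10orf2 (0.74), MGME1 (0.72) and the regulators PPARGC1B (log2 fold change 0.72 ± 0.11, adjusted p = 0.000173), ESRRA (0.38) and PPRC1 (0.55). Of the 15 genes encoded in mitochondrial DNA, 0 were called and 0 had an unadjusted p under 0.05, and DESeq2 called 0, with MT-CO1 at -0.15 (adjusted p = 0.221). The same counts of 0 held for the 5 proteins of other names, with CHCHD1 at 0.34 (adjusted p = 0.168). The 6 assembly genes called became 3 without control R1881 replicate 1 or control vehicle replicate 2, and 2 without control R1881 replicate 2 or control vehicle replicate 1. Without control vehicle replicate 3, 4 synthetases and 5 genes of mitochondrial DNA upkeep were called, against 2 and 2 with all libraries.

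With E2F1 siRNA in R1881 the lists held few calls: TSFM (log2 fold change -0.48 ± 0.09, adjusted p = 0.00223), the assembly genes MRM2 (-0.38) and AFG3L2 (-0.23) and the regulator PPARGC1B (-0.38) fell. Without any 1 of the 6 libraries, 1 assembly gene and 0 regulators were called. Of the 20 synthetases 0 were called, 3 were lower at an unadjusted p under 0.05 and DESeq2 called 2 lower. In vehicle the only call of the 7 lists was a rise of MARS2 (log2 fold change 0.53 ± 0.11, adjusted p = 0.00873), and the count of synthetases was 0 without E2F1 vehicle replicate 1 and 2 without control vehicle replicate 3. Under E2F2 siRNA, R1881 raised the synthetases MARS2 (0.67), YARS2 (0.46) and FARS2 (0.44), and under E2F1 siRNA it raised MARS2 (0.34) and YARS2 (0.46) and lowered VARS2 (-0.51). The 3 synthetases called under E2F1 siRNA became 1 without E2F1 R1881 replicate 1 or 2 or E2F1 vehicle replicate 3. C12orf65 rose under both, by 0.64 with E2F1 siRNA and 0.71 with E2F2 siRNA on the log2 scale. The R1881 response of PPARGC1B was lower with E2F2 than with control siRNA (difference -0.88, adjusted p = 0.0166), a call lost without E2F2 R1881 replicate 1 or 2 or E2F2 vehicle replicate 3. Set against E2F2 siRNA, E2F1 siRNA left 5 synthetases higher in R1881, led by MARS2 (log2 fold change 1.13 ± 0.11, adjusted p = 2.34e-06), with 5 assembly genes higher and 1 lower, 3 genes of mitochondrial DNA upkeep, 2 translation factors and 2 regulators higher. In vehicle the counts were 8 synthetases higher and 2 lower, 7 assembly genes higher and 1 lower, 3 genes of mitochondrial DNA upkeep, 1 translation factor and 2 regulators higher, with MARS2 again first (log2 fold change 1.46 ± 0.11, adjusted p = 1.21e-07) and RBFA leading the assembly genes (log2 fold change 0.95 ± 0.11, adjusted p = 8.19e-06). In R1881, the 5 synthetases became 3 without E2F1 R1881 replicate 3 and the 3 upkeep genes 1 without E2F1 R1881 replicate 1. In vehicle, the 8 assembly genes called became 5 without E2F2 vehicle replicate 1 or 2, and the 3 upkeep genes 5 without E2F1 vehicle replicate 3.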

How the data were processed

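The authors deposited raw counts per gene for 18 libraries. Per the labels' protocols the libraries were made with the TruSeq RNA Exome kit, which captures coding exons. The submitters' processing notes name CASAVA 1.8.2, TopHat2 2.0.13, Picard 1.97, featureCounts (Subread 1.6.4) and GRCh38; strand setting, multi-mapping and annotation release are not given in the sources used here. The deposited counts were fitted with edgeR 4.0.16 (R 4.3.3): genes passing a minimum count of 10 and total of 15, TMM scaling, 6 group means over all 18 libraries, the quasi-likelihood F test and Benjamini-Hochberg adjustment over 15185 genes, called under 0.05. The SE is the fold change divided by the root of F. Nothing says whether replicates came from separate cultures beyond the word biological, so p-values measure the spread between these samples. Alternatives were RLE scaling, no filter, DESeq2 1.42.0, a fit to the compared groups, the replicate number as a block, replicates 1 and 2 only, and leaving out each library.

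Same-numbered samples deviated together (every correlation of deviations from group means over 0.1) in 8 of 11 comparisons, among them R1881 under control siRNA (r 0.340 to 0.658) and E2F2 siRNA in vehicle (0.268 to 0.611). The pairing comes from this check, not from the labels.

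Annotation was GENCODE 29 (57433 of 58037 gene identifiers matched); promoters were RefSeq, GRCh38.p14. Members and lists were chosen with earlier results of these data known. Named genes were the 6 called with the smallest p in each direction for R1881 under control siRNA and each E2F pool in R1881, 3 elsewhere, those called against the median, the 3 highest and 3 lowest levels, 8 kept for their roles, and up to 4 per list.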

Additional observations from a re-analysis of the deposited data

Results flagged for a closer look

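The R1881 response of MRPS25 was lower with E2F1 siRNA than with control siRNA by a tested difference of -0.524 on the log2 scale (edgeR's quasi-likelihood test on the interaction, adjusted p = 0.0484). MRPS25 was at 71.5, 70.0 and 66.6 CPM with R1881 and 67.8, 76.1 and 79.6 CPM with vehicle under E2F1 siRNA, and at 83.6, 80.2 and 80.2 CPM and 57.6, 61.9 and 62.8 CPM in the same treatments under control siRNA. Its exons overlap 1197 bases of NR2C2 on the opposite strand, and NR2C2 was not called in these comparisons.

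The R1881 response of MRPL32 was higher with E2F2 siRNA than with control siRNA by a tested difference of 0.510 on the log2 scale (the same test, adjusted p = 0.0401). MRPL32 was at 66.0, 65.5 and 65.4 CPM with R1881 and 34.0, 36.2 and 35.1 CPM with vehicle under E2F2 siRNA, and at 54.3, 55.0 and 61.6 CPM and 46.9, 42.1 and 41.3 CPM under control siRNA. Among alternatives these calls held in 5 of 18 for MRPS25 and 6 of 18 for MRPL32.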

How the results depend on the processing

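Counts of called genes among the 78 differed between the alternatives, and their balance of direction did so less. RLE in place of TMM scaling moved no count by over 1.5 times. A block for replicate number gave 40 genes for R1881 under control siRNA, 14 under E2F1 siRNA and 28 under E2F2 siRNA, 11 for E2F1 and 39 for E2F2 siRNA against control in R1881, 34 for E2F2 siRNA in vehicle, 20 and 37 for E2F1 against E2F2 siRNA in R1881 and vehicle, and 2 for the E2F1 difference in response. The block moved the other 2 counts by no more than 1.5 times. With the block, 45.6% of all genes were called for E2F2 siRNA against control in R1881, so 39 of 78 is near that share. For E2F1 against E2F2 siRNA in R1881 it was 38.5%, so 20 of 78 is a smaller share. Where the numbers did not pair the samples by the check (E2F2 siRNA against control and E2F1 against E2F2 siRNA, both in R1881, and the E2F2 difference), the lowest correlation of same-numbered samples was 0.0819 and 0.0911, and these block values describe a shared number only. Without replicate 3 the counts in the same order were 42, 23, 43, 19, 44, 39, 28, 45 and 5, with 4 for E2F1 siRNA in vehicle and 3 for the E2F2 difference; of all genes, 12.1% and 11.6% were then called for the E2F1 and E2F2 differences, so 5 and 3 of 78 are smaller shares. Fitting only the groups compared gave 2 for R1881 under control siRNA, 3 under E2F1 siRNA and 22 under E2F2 siRNA, 0 for E2F1 siRNA in vehicle, 36 and 2 for E2F2 siRNA in R1881 and vehicle, 22 for E2F1 against E2F2 siRNA in R1881, and 0 for both differences. Without the filter on low counts the values were 3 for R1881 under E2F1 siRNA, 0 for E2F1 siRNA in R1881, 0 in vehicle, 6 for E2F1 against E2F2 siRNA in R1881, and 0 for both differences. DESeq2 gave 2 for the E2F1 difference. The cause of these shifts was not tested. Fits to part of the data also had fewer samples.

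Leaving out single libraries gave 12 to 28 for R1881 under control siRNA, 3 to 5 under E2F1 siRNA and 8 to 15 under E2F2 siRNA. It gave 1 to 1 for E2F1 siRNA in R1881 and 0 to 1 in vehicle, 13 to 16 for E2F2 siRNA in R1881 and 9 to 19 in vehicle. It gave 6 to 8 for E2F1 against E2F2 siRNA in R1881, 15 to 23 in vehicle, and 0 to 1 for each difference. No result reversed. Of 77 counts for the 7 lists of other genes, the block raised 44 and leaving out replicate 3 raised 65 by over 1.5 times, and a fit to the compared groups raised 17 and lowered 14. Of 546 such counts with 1 library left out, 17 were higher and 46 lower by that much. Medians over the 78 genes moved by more than the spread between replicates in 11 cases and by less in 133. Of single called genes and alternatives, 1069 pairings kept the call and 275 lost it, in the same direction. On simulated counts for E2F2 against control siRNA in R1881 (14826 genes), 2, 8, 38 and 50 of 50 genes changed 1.3, 1.5, 2 and 4-fold were recovered. No other genes were changed there, whereas 30.3% of all genes were called in the data, so the cut on unadjusted p was stricter. The share of small changes missed in the data cannot be read from this simulation.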
